A study of Homo sapiens with 6 samples.

Results

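The genes described here are 36 genes of glucose breakdown and of the response to low oxygen, chosen by symbol from a table of 28514 genes. Of these, 22 act in glucose uptake, glycolysis and the handling of pyruvate and lactate, and 14 encode subunits, regulators or targets of the hypoxia-inducible factors (HIFs). All 36 symbols were found in the table, and 34 had enough counts to be tested among 14548 genes. The exceptions were the HIF prolyl hydroxylase gene EGLN3 and the carbonic anhydrase gene CA9, with at most 2 counts in any library.

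Messenger RNA was sequenced in 6 libraries from CI-huVEC, endothelial cells of the human umbilical vein that have been immortalised. The wild-type group held 3 libraries (WT 1, WT 2 and WT 4), called wild-type lines here although the labels do not call them separate lines. The CCM3 -/- group was K17, K18 and K19, lines made by CRISPR/Cas9 editing aimed at exon 3 of CCM3, the disease name of PDCD10, a gene mutated in familial cerebral cavernous malformations. All 6 were at passage 31, all have HKO as their clone label (not explained there), and no treatment or oxygen level is labelled. The knockout lines are called clones here from their separate names, although the labels do not describe how each was isolated, and loss of CCM3 and other differences between edited and wild-type lines cannot be told apart. Whether the wild-type libraries came from separate clones is not labelled, so p-values measure the spread between these samples, part of which may be technical.

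Endothelial cells draw most of their energy from glycolysis, in which glucose enters through GLUT transporters, is split into triose phosphates and ends as pyruvate, most of which leaves the cell as lactate. HIFs are dimers of an oxygen-labile alpha subunit (from HIF1A or EPAS1) with ARNT. When oxygen is present, prolyl hydroxylases of the EGLN family mark the alpha subunit, the VHL ubiquitin ligase binds it and it is degraded, whereas in hypoxia it persists and activates genes for glucose transporters, glycolytic enzymes, BNIP3, CA9 and others.

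Total counts were between 28280417 and 32919491 per library. By these totals 3 counts, the most that a count of 0 allows, stood for 0.0911 to 0.106 CPM (counts scaled to a common library size). The other CPM values use library sizes scaled further, by TMM factors. PDCD10 measured 60.5, 60.7 and 61.6 CPM in wild-type cells against 42.3, 31.6 and 37.6 CPM in the clones K17, K18 and K19, a log2 difference of -0.71 (SE 0.11, edgeR adjusted p = 0.00374), and counts alone do not show the edit. All 10 endothelial markers were detected, and their summed level was 2549 to 2641 CPM in the wild type and 4091 to 4342 CPM in the knockout (7 called higher, none lower). Other markers summed to 2.92 to 3.32 CPM against 0.579 to 7.19 CPM for 5 fibroblast genes. Sums of 5 leukocyte genes were 20.2 to 24.3 against 38.2 to 43.8 CPM (CD68 called higher at 22.1 and 37.8 CPM on average, the other 4 not called or not tested, PTPRC at most 0.692 CPM). Sums of 5 epithelial genes were 242 to 261 against 349 to 625 CPM (CDH1 at 0 counts in all libraries, 2 called higher). Sums of 6 smooth muscle and pericyte genes were 381 to 398 against 46.7 to 77.8 CPM. Most of that fall was RGS5, at 300 and 10.4 CPM on average. RGS5 and TAGLN (83.8 and 40.3 CPM) were called lower, and ACTA2 (3.88 and 13.5 CPM) was called higher. The sum of 6 proliferation genes was 1377 to 1414 CPM in the wild type and 835 to 1273 CPM in the knockout (TOP2A and CDK1 called lower, 4 not called). The part of these marker differences in the results was not tested. The clones' libraries also differed in base composition: relative to the wild-type mean, the median log2 ratio of genes in the top 20% of GC content exceeded that of genes in the bottom 20% by 0.97 in K18 and 0.89 in K19, against 0.10 in K17 and between -0.14 and 0.10 in the wild-type libraries. Values with this GC trend removed are given where they end a call, turn a called direction or move a called difference by more than 1.5 times, and for uncalled members that pass the test there. Levels are listed in the order WT 1, WT 2, WT 4 and then K17, K18, K19.

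In the knockout clones transcripts of both main glucose transporters rose, and those of the fructose-2,6-bisphosphate enzyme PFKFB3 and of pyruvate dehydrogenase kinase 1 fell. Its low-level relative PFKFB4 also fell and the enzymes of the pathway itself split, but each of these calls ended when some library was left out. Of 22 glycolysis genes, all tested, 5 were called higher (SLC2A1, SLC2A3, GPI, GAPDH and ENO1), 6 lower (HK1, PFKFB3, PFKFB4, ALDOC, PGK1 and PDK1) and 11 were not called. Of the 14 hypoxia genes, 12 were tested: 1 was called higher (NDRG1), 5 lower (EGLN1, VHL, BNIP3, KDM3A and MXI1) and 6 were not called. A gene was called at an adjusted p below 0.05, and over all 14548 tested genes 38.7% were called, 18% higher and 20.8% lower. The median log2 difference, knockout minus wild type, was 0.12 for the glycolysis genes, -0.19 for the 12 tested hypoxia genes and 0.00 over all tested genes. The median of the hypoxia genes covers only those that passed the filter on low counts.

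Calls of 6 members (SLC2A1, SLC2A3, PFKFB3, PDK1, VHL and NDRG1) held in all 9 alternative settings and with each of the 6 libraries left out. The calls of the other 11 ended when at least 1 library was left out, and their values without it are given beside them. Fewer cells with a transcript and less of it per cell cannot be told apart in these bulk libraries.

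**Figure D1:**
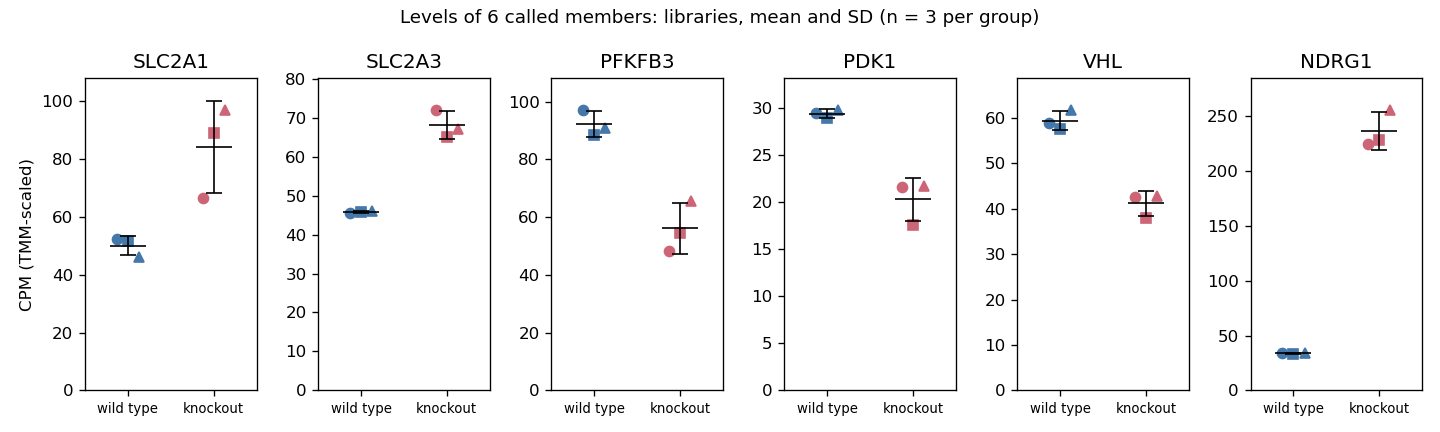
Levels (CPM scaled by TMM factors, linear axes from 0) of the 6 members whose calls held in every setting; points are libraries (circle, square and triangle are WT 1, WT 2 and WT 4 in blue and K17, K18 and K19 in red), and bars are the mean and SD of 3 libraries. In each panel the groups do not overlap, and NDRG1 shows the widest gap, from 33.8 to 237 CPM on average.

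Glucose uptake. SLC2A1, which encodes GLUT1, the widely expressed glucose transporter of endothelium, stood at 52.3, 51.8 and 46.2 CPM in the wild-type lines. The clones had 66.6, 89.0 and 97.1 CPM. All clones lay above all wild-type lines, with K17 the lowest of the clones. Its mean rose 1.68-fold, from 50.1 ± 3.38 to 84.2 ± 15.8 CPM (SD, n = 3 per group), a log2 difference of 0.75 (SE 0.15, edgeR adjusted p = 0.00948). SLC2A3 encodes GLUT3, a transporter with high affinity for glucose. It measured 45.6, 45.8 and 46.2 CPM in the wild-type lines and 72.1, 65.2 and 67.2 CPM in the 3 clones. The groups did not overlap, and K17 was here the highest clone. The log2 difference of SLC2A3 was 0.57 (SE 0.06, edgeR adjusted p = 0.00106), a 1.49-fold rise. SLC2A14, a near-identical copy with which SLC2A3 may share reads, was at 0.211 to 0.681 CPM and not called.

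Upper steps. HK1 and HK2 encode hexokinases, which trap glucose by phosphorylation. HK1 fell from 294, 276 and 275 CPM in the wild type to 223, 255 and 250 CPM in the clones, by 0.22 on the log2 scale (SE 0.07, edgeR adjusted p = 0.0456). That call ended with no filter on low counts (edgeR adjusted p = 0.0557) and without WT 1, WT 2, WT 4 or K19 (edgeR adjusted p = 0.0744 to 0.157). HK2, the hexokinase known as the inducible one, was at 77.4 to 79.3 CPM and 75.8 to 83.0 CPM, with a log2 difference of 0.02 (95% interval -0.12 to 0.15) that was not called. GPI, glucose-6-phosphate isomerase, was at 413, 402 and 384 CPM in wild-type lines against 465, 611 and 565 CPM in the clones. The groups did not overlap, and GPI rose by 0.45 on the log2 scale (SE 0.10, edgeR adjusted p = 0.0161). With the GC trend removed it was at 0.15 and still called (edgeR adjusted p = 0.0378), and significance was lost without WT 1, WT 2 or WT 4 (edgeR adjusted p = 0.0546 to 0.0723).

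Phosphofructokinase makes the committed step of glycolysis and is built from the liver (PFKL), muscle (PFKM) and platelet (PFKP) subunits. PFKL measured 90.3, 90.0 and 71.2 CPM in the wild type, 88.8 in K17, and 204 and 205 CPM in the clones K18 and K19, so that K17 lay among the wild-type lines. Its log2 difference of 0.98 (SE 0.32, 95% interval 0.21 to 1.76) was not called by edgeR (adjusted p = 0.0524). It was called without K17 (1.29, edgeR adjusted p = 3.74e-05), with 3 other scalings (edgeR adjusted p = 0.0451 to 0.0498), by DESeq2 (adjusted p = 0.00301), and with the GC trend removed, at 0.35 (edgeR adjusted p = 0.0234). PFKP, at 423, 417 and 386 CPM against 260, 413 and 372 CPM, differed by -0.23 (95% interval -0.63 to 0.17) and was not called, but was at -0.51 with the GC trend removed (edgeR adjusted p = 0.00165). PFKM was at 195 to 201 CPM and 186 to 224 CPM, a difference of 0.05 (95% interval -0.13 to 0.23) called only without K17, at 0.13 (edgeR adjusted p = 0.0493).

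The allosteric activator of phosphofructokinase, fructose-2,6-bisphosphate, is made by the PFKFB enzymes, and PFKFB3 is the main one in endothelial cells. PFKFB3 was at 97.3, 88.6 and 91.1 CPM in wild-type lines against 48.2, 54.5 and 65.6 CPM in the clones. Every clone lay below every wild-type line. The mean fell from 92.3 ± 4.46 to 56.1 ± 8.83 CPM (SD, n = 3 per group), by 0.72 on the log2 scale (SE 0.12, edgeR adjusted p = 0.0049), and by 1.10 with the GC trend removed (edgeR adjusted p = 0.000547). PFKFB4, a related enzyme, was low, at 3.90, 3.13 and 3.70 CPM in wild-type lines against 2.72, 1.88 and 2.18 CPM in the clones. It fell by 0.66 (SE 0.19, edgeR adjusted p = 0.0356), a call that ended with no filter on low counts (edgeR adjusted p = 0.0537) and without WT 1, WT 2, WT 4, K18 or K19 (edgeR adjusted p = 0.0653 to 0.13).

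Aldolase splits fructose-1,6-bisphosphate. ALDOA, its main form outside liver and brain, was at 489, 476 and 425 CPM in the wild type, 465 in K17, and 864 and 842 CPM in the clones K18 and K19. As with PFKL, K17 lay among the wild-type lines. The ALDOA difference of 0.64 (95% interval 0.08 to 1.21) was not called by edgeR (adjusted p = 0.0701). ALDOA was called without K17 (0.89, edgeR adjusted p = 9.71e-06) and by DESeq2 (adjusted p = 0.0109), and stood at 0.20, not called, with the GC trend removed (edgeR adjusted p = 0.0733). ALDOC, the form best known from brain, went from 10.3, 10.95 and 10.5 CPM to 7.19, 5.67 and 3.11 CPM. The groups did not overlap, and the clones differed among themselves 2.31-fold. ALDOC fell by 0.99 (SE 0.29, edgeR adjusted p = 0.0379), a call that was lost without WT 1, WT 2, WT 4 or K18 (edgeR adjusted p = 0.0898 to 0.107). TPI1, triose phosphate isomerase, was at 589 to 608 CPM and 625 to 764 CPM; its difference of 0.20 (95% interval 0.02 to 0.39) was called only by DESeq2 (adjusted p = 0.0331) and without K17 (0.28, edgeR adjusted p = 0.00222).

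Lower steps. GAPDH, which oxidises glyceraldehyde-3-phosphate and is often taken as a reference gene, measured 1821, 1814 and 1771 CPM in wild-type lines against 2040, 2639 and 2452 CPM in the clones. All clones exceeded all wild-type lines. GAPDH rose by 0.40 (SE 0.09, edgeR adjusted p = 0.0184), and by 0.19 with the GC trend removed (edgeR adjusted p = 0.00784). The enolase gene ENO1 moved alike, from 1634, 1594 and 1549 CPM to 1836, 2375 and 2189 CPM, a rise of 0.42 (SE 0.10, edgeR adjusted p = 0.0157). Both calls ended without WT 1, WT 2 or WT 4 (edgeR adjusted p = 0.0657 to 0.0772 for GAPDH and 0.0551 to 0.0701 for ENO1). PGK1, the first enzyme of the pathway to yield ATP, went the other way, from 730, 710 and 742 CPM to 646, 642 and 632 CPM, without overlap and with the closest agreement among clones of all 34 tested members (highest over lowest 1.02). PGK1 fell by 0.18 (SE 0.04, edgeR adjusted p = 0.0167). With the GC trend removed it stood at -0.02 (edgeR adjusted p = 0.689), and the call also ended with no filter on low counts (edgeR adjusted p = 0.0657) and without WT 1, WT 2, WT 4, K18 or K19 (edgeR adjusted p = 0.0548 to 0.0895). PGAM1, phosphoglycerate mutase, was at 209 to 211 and 190 to 206 CPM, a difference of -0.07 (95% interval -0.19 to 0.06), and was called lower only with the GC trend removed, at -0.15 (edgeR adjusted p = 0.0182). The neuronal enolase gene ENO2 was at 18.7 to 20.6 CPM in the wild type, 31.5 in K17, and 20.6 and 18.4 CPM in the clones K18 and K19, and was not called (0.28, 95% interval -0.22 to 0.78). Several of these genes, GAPDH, PGK1, PGAM1, TPI1, ENO1, ALDOA and the LDH genes among them, have processed pseudogenes, and reads shared with those could have been lost or misplaced in the counting.

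Pyruvate and lactate. Lactate dehydrogenase interconverts pyruvate and lactate. LDHA was at 1094, 1103 and 1132 CPM in wild-type lines against 1392, 1260 and 1158 CPM in the clones, a difference of 0.19 (95% interval 0.02 to 0.37) that was not called (edgeR adjusted p = 0.0734). LDHA was called with the GC trend removed (0.31, edgeR adjusted p = 0.00274), without K17 (0.13, edgeR adjusted p = 0.0448) and without K19 (0.28, edgeR adjusted p = 0.0269). LDHB, at 805 to 827 and 741 to 804 CPM, differed by -0.06 (95% interval -0.18 to 0.06). PDK1, whose kinase restrains pyruvate dehydrogenase and so the entry of pyruvate into the citric acid cycle, was at 29.5, 29.01 and 29.9 CPM in wild-type lines against 21.6, 17.6 and 21.7 CPM in the clones. The groups did not overlap. PDK1 fell by 0.54 (SE 0.10, edgeR adjusted p = 0.00806). SLC16A3 encodes MCT4, the lactate exporter, and its sign depended on the GC correction. It was at 98.3, 99.0 and 79.95 CPM in the wild type, 67.2 in K17, and 153 and 150 CPM in the clones K18 and K19. Its difference of 0.42 (95% interval -0.33 to 1.16) was not called. It was called higher without K17 (0.72, edgeR adjusted p = 0.000291) and lower with the GC trend removed (-0.33, edgeR adjusted p = 0.00163).

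**Figure D2:**
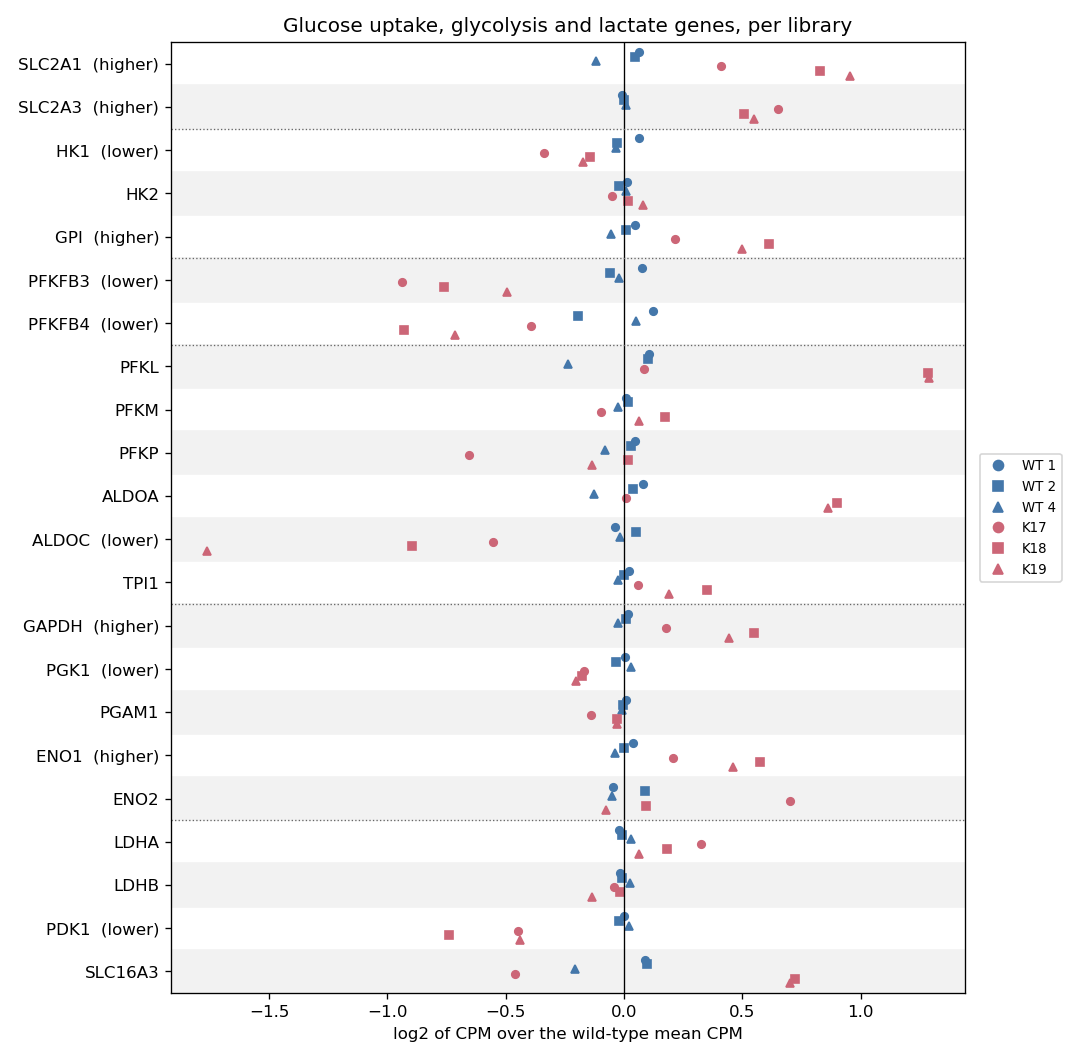
Log2 of each library's CPM over the mean CPM of the wild-type libraries (0 on the horizontal axis) for the 22 glycolysis genes in pathway order; blue symbols are wild-type lines, red symbols knockout clones, and (higher) or (lower) marks genes called by edgeR. K18 and K19 lie together and apart from K17 for PFKL, ALDOA and SLC16A3, while PFKFB3, PDK1 and SLC2A3 show all 3 clones on 1 side.

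Levels per transcript length were compared in FPKM as the authors deposited it. In the wild type GAPDH was the highest of the 22 genes at 1036 ± 13.9 FPKM (SD, n = 3), followed by ENO1 at 505 ± 10.1, LDHB at 428 ± 9.37, LDHA at 390 ± 9.76, TPI1 at 304 ± 3.45 and PGK1 at 236 ± 5.15 FPKM. The transporters, at 11.05 ± 0.705 FPKM for SLC2A1 and 9.42 ± 0.148 FPKM for SLC2A3, and the kinase gene PDK1, at 5.14 ± 0.0834 FPKM, lay below GAPDH, PGK1, PGAM1 and ENO1 of the lower steps, while ENO2 was at 5.54 FPKM. PFKFB4 was the lowest, at 0.798 ± 0.0833 FPKM in the wild type and 0.489 ± 0.101 FPKM in the knockout. In the knockout LDHA (432 ± 48.7 FPKM) stood above LDHB (397 ± 23.0 FPKM), the reverse of the wild-type order. GAPDH and ENO1 were still the highest there, at 1322 ± 153 and 655 ± 76.0 FPKM.

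**Figure D3:**
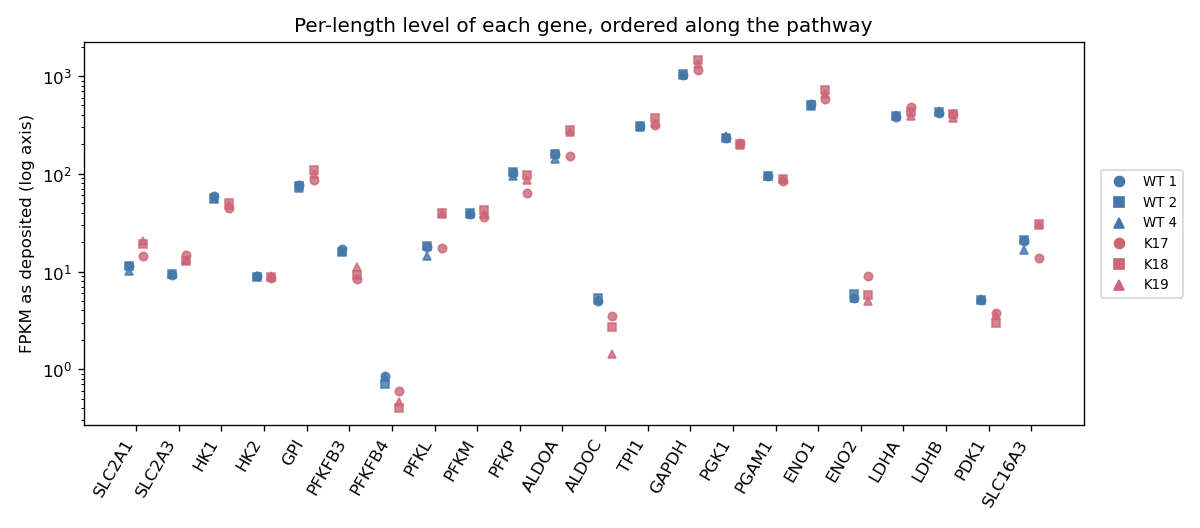
Deposited FPKM (log axis) of the 22 glycolysis genes ordered along the pathway; blue symbols are wild-type lines and red symbols knockout clones. Levels span from 0.798 FPKM for PFKFB4 to 1036 FPKM for GAPDH in the wild type, and the differences between groups are small beside the differences between genes.

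Isoenzyme shares were compared in the same unit, without removal of the GC trend. Transcripts of PFKL have a GC content of 63.6%, against 51.3% for PFKM and 58.0% for PFKP. PFKP made up 64.4%, 64.0% and 64.3% of the summed FPKM of the 3 phosphofructokinase genes in the wild type, and 54.0%, 54.4% and 52.8% in K17, K18 and K19. The PFKL share was 11.2%, 11.3% and 9.65% in the wild type and 15.04%, 21.9% and 23.6% in the clones. Thus K17, whose PFKL level lay among the wild-type lines, also had a smaller PFKP share and a larger PFKL share than every wild-type line. The levels behind these shares differed among the clones. PFKP was at 95.4 to 103 FPKM in the wild type, 63.1 in K17, and 98.0 and 87.0 FPKM in K18 and K19. PFKL was at 14.3 to 18.1 FPKM in the wild type, 17.6 in K17, and 39.5 and 38.9 FPKM in K18 and K19. The PFKM share overlapped (25.0 ± 0.863% and 26.0 ± 4.22%, SD, n = 3 per group). LDHA was 47.7 ± 0.0805% of LDHA plus LDHB in the wild type and 52.1 ± 1.69% in the knockout, without overlap. HK1 went from 86.4 ± 0.379% to 84.4 ± 0.582% of HK1 plus HK2, and ALDOC from 3.26 ± 0.249% to 1.24 ± 0.876% of the aldolase pair, again without overlap. The ALDOC share was 2.22%, 0.957% and 0.541% in K17, K18 and K19, and GC content was 55.5% for ALDOC and 60.7% for ALDOA. The SLC2A1 share of both transporters (53.9 ± 1.87% and 56.7 ± 6.01%) and the ENO2 share of both enolases (1.09 ± 0.0642% and 1.02 ± 0.438%) overlapped. Of 8 shares compared, the 5 without overlap each had p = 0.1 by a two-sided exact permutation test, the smallest p that 3 against 3 samples allow, so none can pass 0.05. The PFKP and PFKL shares are parts of the same total and not independent. In CPM, 24.5% of all tested genes had no overlap with the knockout higher and 31% none with it lower.

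**Figure D4:**
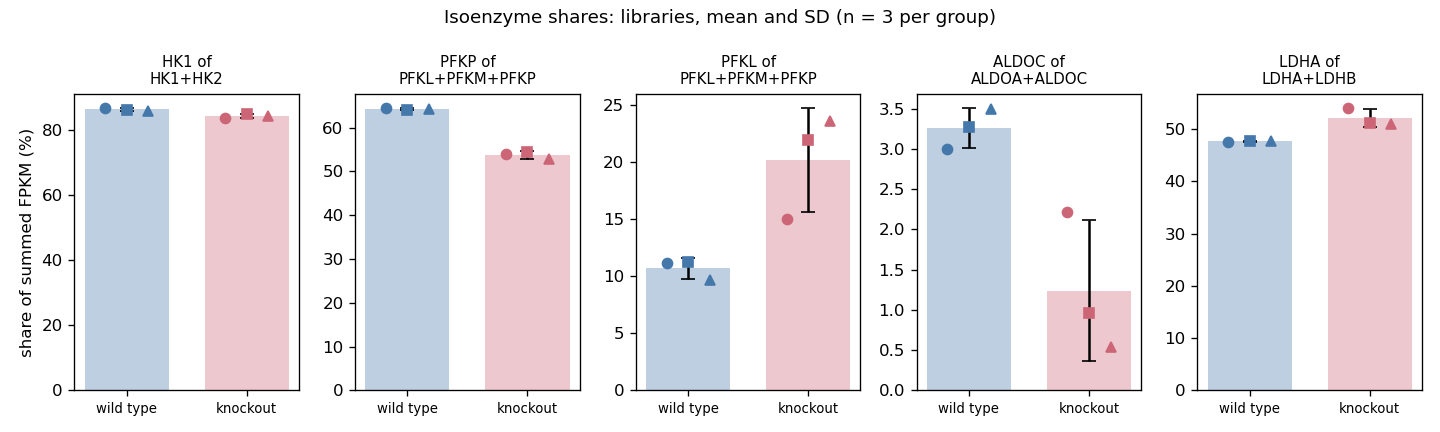
Share of summed FPKM held by HK1, PFKP, PFKL, ALDOC and LDHA within their isoenzyme families (vertical axes in percent, from 0 and with a scale of their own); bars are means, error bars SDs and points the 3 libraries of each group. The PFKP share lies near 64% in the wild type and near 54% in the knockout. The PFKP and PFKL levels behind that share differ between K17 and the clones K18 and K19.

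HIF subunits and their degradation. None of the HIF subunits was called by edgeR in the main comparison. HIF1A was at 208, 191 and 200 CPM in wild-type lines against 184, 149 and 168 CPM in the clones, which did not overlap (difference -0.26, 95% interval -0.46 to -0.05, edgeR adjusted p = 0.0549). It was called lower without K17 (-0.32, edgeR adjusted p = 0.00241), with library totals as the scaling (-0.30, edgeR adjusted p = 0.0447) and by limma on FPKM, with 1 or 0.1 added before log2, (adjusted p = 0.0446 and 0.0435), and was at -0.04 with the GC trend removed (edgeR adjusted p = 0.615). EPAS1, which encodes the HIF2 alpha subunit abundant in endothelium, was at 467 to 490 CPM and 482 to 583 CPM (0.14, 95% interval -0.04 to 0.32). Without K17 EPAS1 was called higher (0.21, edgeR adjusted p = 0.0131), and with the GC trend removed its sign turned, uncalled (-0.08, edgeR adjusted p = 0.272). ARNT, the shared beta subunit gene, was at 53.1 to 56.9 and 48.6 to 53.9 CPM (-0.12, 95% interval -0.28 to 0.04), and was called only without K17 (-0.16, edgeR adjusted p = 0.0337). Per length EPAS1 (75.1 ± 1.35 FPKM) stood above HIF1A (39.8 ± 1.30 FPKM) and ARNT (9.03 ± 0.340 FPKM) in the wild type, and in the same order in the knockout (79.997 ± 7.22, 32.3 ± 3.79 and 8.05 ± 0.625 FPKM).

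VHL, the substrate receptor of the ligase that removes HIF alpha subunits, measured 58.9, 57.5 and 61.8 CPM in wild-type lines against 42.6, 37.9 and 42.8 CPM in the clones. All clones were below all wild-type lines. VHL fell from 59.4 ± 2.19 to 41.1 ± 2.77 CPM (SD, n = 3 per group), by 0.53 on the log2 scale (SE 0.07, edgeR adjusted p = 0.00259). EGLN1, the main HIF prolyl hydroxylase gene, went from 95.4, 94.95 and 97.0 CPM to 84.0, 79.6 and 85.2 CPM, also without overlap. EGLN1 fell by 0.21 (SE 0.05, edgeR adjusted p = 0.0235), but stood at -0.01 with the GC trend removed (edgeR adjusted p = 0.845). The EGLN1 call also ended with no filter on low counts (edgeR adjusted p = 0.0687) and without WT 1, WT 2, WT 4, K18 or K19 (edgeR adjusted p = 0.0566 to 0.106). EGLN3, itself a HIF target in many cells, had 2, 1 and 0 counts in the wild type and 2, 1 and 0 in the clones, at or under the limit that a count of 0 allows.

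HIF targets. NDRG1, a stress-responsive gene induced by hypoxia through HIF and also by other signals, was the member that differed most. It measured 33.7, 33.5 and 34.1 CPM in wild-type lines against 225, 229 and 256 CPM in the clones. NDRG1 rose 7.004-fold, from 33.8 ± 0.334 to 237 ± 17.05 CPM (SD, n = 3 per group), a log2 difference of 2.81 (SE 0.07, 95% interval 2.64 to 2.97, edgeR adjusted p = 8.43e-06). Among the 7 tested genes listed here as targets, NDRG1 was the only one with a difference above 0. Genes for glucose transporters and glycolytic enzymes, some of which HIFs also activate, were counted with the glycolysis genes. Of those 22 genes, 13 had a difference above 0 and 9 had one below 0, against 7299 above and 7249 below among all tested genes.

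The mitophagy receptor gene BNIP3 went from 57.8, 59.4 and 59.4 CPM to 51.0, 53.3 and 48.7 CPM and fell by 0.21 (SE 0.06, edgeR adjusted p = 0.0359), or by 0.33 with the GC trend removed (edgeR adjusted p = 0.00713). That call ended with DESeq2 size factors (edgeR adjusted p = 0.0537), with no filter on low counts (edgeR adjusted p = 0.0934) and without WT 1, WT 2, WT 4, K18 or K19 (edgeR adjusted p = 0.0558 to 0.134). Its relative BNIP3L was at 125 to 131 and 113 to 125 CPM (-0.13, 95% interval -0.27 to 0.01) and was called only without K17 (-0.16, edgeR adjusted p = 0.0192). KDM3A, a histone demethylase gene, went from 65.9, 65.5 and 68.5 CPM to 58.2, 52.2 and 50.5 CPM and fell by 0.31 (SE 0.07, edgeR adjusted p = 0.0166), or by 0.16 with the GC trend removed (edgeR adjusted p = 0.0272). The KDM3A call ended without WT 1, WT 2, WT 4, K18 or K19 (edgeR adjusted p = 0.059 to 0.0788). MXI1, an antagonist of MYC, went from 22.6, 22.8 and 27.4 CPM to 13.2, 19.7 and 17.5 CPM and fell by 0.53 (SE 0.17, edgeR adjusted p = 0.0456). It was at -0.45 with the GC trend removed (edgeR adjusted p = 0.0763), and significance was lost without WT 1, WT 2, WT 4 or K19 as well (edgeR adjusted p = 0.0931 to 0.152). Groups did not overlap for BNIP3, BNIP3L, KDM3A and MXI1.

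The remaining target genes overlapped between the groups. DDIT4, an inhibitor of mTORC1 signalling, was at 42.9 to 45.7 and 37.0 to 43.2 CPM (-0.12, 95% interval -0.32 to 0.08), and at -0.72 with the GC trend removed (edgeR adjusted p = 0.0447). ANKRD37 was low in both groups, at 1.59 to 2.53 and 1.49 to 2.02 CPM (-0.17, 95% interval -0.73 to 0.39). CA9, among the most hypoxia-responsive genes in tumour cells, had 1, 2 and 2 counts in the wild type and 1, 1 and 0 counts in the clones. Over all members, groups did not overlap for 8 with the knockout higher and 15 with it lower, while among all tested genes 24.5% and 31% did so.

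**Figure D5:**
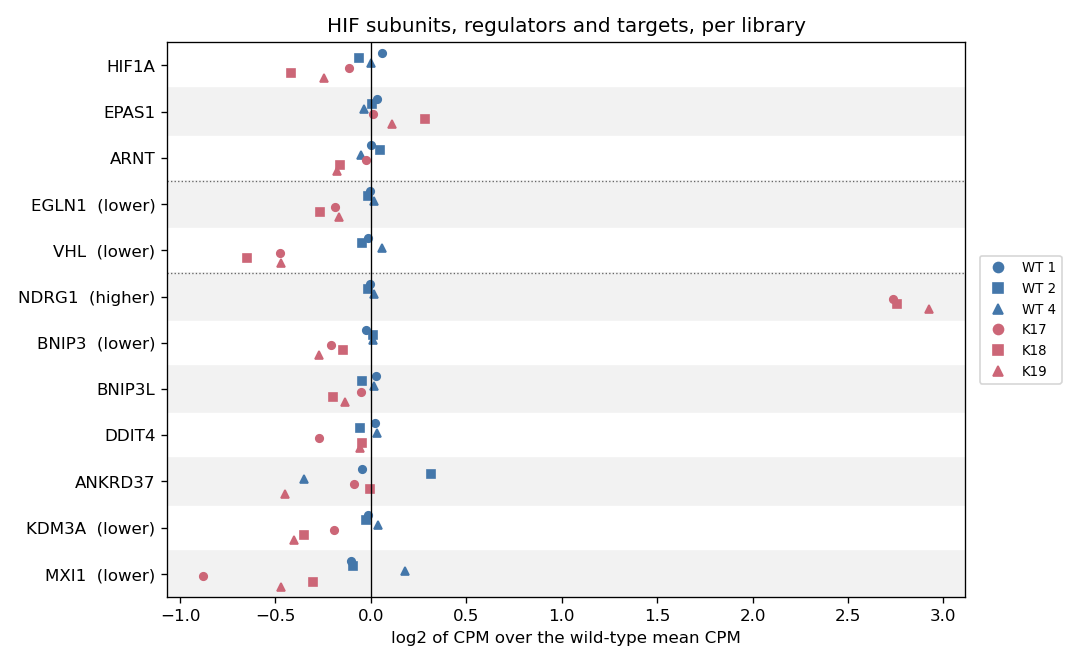
Log2 of each library's CPM over the mean CPM of the wild-type libraries for the 12 tested HIF subunits, regulators and targets; blue symbols are wild-type lines, red symbols knockout clones, and (higher) or (lower) marks genes called by edgeR. NDRG1 lies apart near 2.8 in all 3 clones, and the other called genes lie below 0.

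Promoter sequence was available for 32 of the 36 members, as the 250 bases before the RefSeq start of transcription on GRCh38.p14, a build other than that of the counts; SLC2A3, VHL, BNIP3L and NDRG1 have no entry. HIF dimers bind short sites whose core is ACGTG or, in some sites, GCGTG. Both strands were searched, so that the palindrome CACGTG counts as a pair of matches. The core ACGTG was found in 13 of the 32 promoters (40.6%), against 18.7% of all 27305 promoters of the table, and GCGTG in 12 (37.5%) against 31.9%. The members were chosen as genes of glycolysis and hypoxia, and the promoters were not matched for GC content. What the higher shares reflect was not tested. Among tested members, ACGTG was present in 2 of 4 called higher, in 4 of 10 called lower and in 6 of 16 not called. The promoters of the 4 called members with the largest differences among the 32 are shown to let these be read side by side, 5′ to 3′ on the gene's strand, with every match to ACGTG and to GCGTG, on either strand, in capitals.
ALDOC (chr17:28576896-28577145, minus strand): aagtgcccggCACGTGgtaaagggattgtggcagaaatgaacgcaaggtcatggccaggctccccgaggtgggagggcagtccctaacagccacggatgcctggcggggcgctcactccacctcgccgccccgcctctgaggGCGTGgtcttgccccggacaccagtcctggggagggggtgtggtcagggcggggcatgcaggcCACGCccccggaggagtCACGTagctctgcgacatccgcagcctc
SLC2A1 (chr1:42958869-42959118, minus strand): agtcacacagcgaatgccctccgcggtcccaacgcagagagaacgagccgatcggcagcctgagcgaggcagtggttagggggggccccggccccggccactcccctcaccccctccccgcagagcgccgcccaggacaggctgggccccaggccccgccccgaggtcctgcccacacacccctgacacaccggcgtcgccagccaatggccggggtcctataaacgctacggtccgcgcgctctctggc
PFKFB3 (chr10:6144671-6144920, plus strand): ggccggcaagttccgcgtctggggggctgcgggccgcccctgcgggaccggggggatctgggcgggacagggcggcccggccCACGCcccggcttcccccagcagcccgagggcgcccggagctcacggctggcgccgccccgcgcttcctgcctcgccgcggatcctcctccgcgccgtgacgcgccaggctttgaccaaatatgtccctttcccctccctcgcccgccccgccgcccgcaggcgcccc
PFKFB4 (chr3:48556804-48557053, minus strand): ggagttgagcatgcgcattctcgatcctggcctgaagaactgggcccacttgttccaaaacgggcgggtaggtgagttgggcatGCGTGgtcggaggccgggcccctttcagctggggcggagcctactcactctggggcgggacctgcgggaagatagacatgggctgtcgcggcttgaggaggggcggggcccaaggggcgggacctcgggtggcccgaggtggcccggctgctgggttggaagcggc
ALDOC, which fell, has 3 matches to ACGTG, of which a pair overlap in CACGTG, and 2 to GCGTG. SLC2A1, which rose, has neither core in this window. PFKFB3 and PFKFB4, which fell, have 1 match each to GCGTG and lack the other core. A match here is a match of letters and not evidence of binding.

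The other genes of these pathways were taken from 5 further lists holding 117 genes, of which 100 were tested, 26 called higher and 25 lower. Of 28 other genes of glycolysis and hexose transport, 18 were tested, 6 were higher, 4 lower and 8 not called. The gluconeogenic gene FBP1, whose enzyme runs the phosphofructokinase step backwards, rose from 2.09, 2.71 and 2.67 CPM to 20.2, 27.6 and 23.6 CPM (3.26, SE 0.17, edgeR adjusted p = 8.35e-05). PKM, pyruvate kinase, rose by 0.24 (edgeR adjusted p = 0.0149), but was at 0.06 with the GC trend removed (edgeR adjusted p = 0.511), and significance was lost without WT 2 or WT 4 (edgeR adjusted p = 0.0621 and 0.0723). BPGM, which makes 2,3-bisphosphoglycerate, fell from 63.5, 60.5 and 61.6 CPM to 24.6, 24.5 and 26.7 CPM (-1.29, SE 0.07, edgeR adjusted p = 8.13e-05).

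Of 20 further genes of pyruvate and lactate, 18 were tested, 7 were higher, 3 lower and 8 not called. PDK4, a relative of PDK1 with the same target, moved opposite to it, from 1.87, 2.32 and 2.11 CPM to 13.6, 10.4 and 11.8 CPM (2.50, SE 0.16, edgeR adjusted p = 0.000156). PDP1, the phosphatase that counteracts these kinases, rose from 81.5, 72.7 and 77.8 CPM to 113, 108 and 120 CPM (0.55, SE 0.07, edgeR adjusted p = 0.00179). The lactate transporter gene SLC16A1 (MCT1) fell by 0.37 (SE 0.06, edgeR adjusted p = 0.00384) and the pyruvate dehydrogenase component gene PDHX by 0.47 (SE 0.07, edgeR adjusted p = 0.00401). With the GC trend removed these were at -0.23 and -0.31 and still called (edgeR adjusted p = 0.0463 and 0.0209). In the pentose phosphate list 10 of 11 genes were tested, 2 were higher, 3 lower and 5 not called. PRPS2, which makes the ribose donor for nucleotides, fell from 63.4, 64.6 and 67.6 CPM to 30.1, 28.2 and 28.5 CPM (-1.17, SE 0.06, edgeR adjusted p = 8.7e-05), and PRPS1 fell by 0.51 (edgeR adjusted p = 0.00201). The transaldolase gene TALDO1 rose by 0.49, or by 0.31 with the GC trend removed (edgeR adjusted p = 0.00611 and 0.000851). PGLS, called at 0.87 (edgeR adjusted p = 0.0476), was at 0.18 with the GC trend removed, and its call ended with no filter, by limma in 3 settings and without any 1 of WT 1, WT 2, WT 4, K18 and K19.

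Of 18 other genes of the HIF machinery, 16 were tested, 4 were higher, 3 lower and 9 not called. HIF1AN, the asparaginyl hydroxylase that blocks HIF coactivator binding, fell from 71.2, 70.2 and 68.4 CPM to 56.6, 54.4 and 50.6 CPM (-0.38, SE 0.06, edgeR adjusted p = 0.0054), and the coactivator gene EP300 fell by 0.38 (SE 0.07, edgeR adjusted p = 0.00663). The transmembrane prolyl hydroxylase gene P4HTM rose by 0.99, or by 0.61 with the GC trend removed (edgeR adjusted p = 0.00722 and 0.000527). EGLN2, a further HIF prolyl hydroxylase gene, rose from 1.48, 1.81 and 1.70 CPM to 2.21, 3.94 and 4.81 CPM (1.13, SE 0.30, edgeR adjusted p = 0.0265), a value of 0.53 with the GC trend removed, and significance was lost without WT 1, WT 2, WT 4, K18 or K19 (edgeR adjusted p = 0.0614 to 0.101). Of 40 other genes known as HIF targets in various cells, 38 were tested, 7 were higher, 12 lower and 19 not called. Mitochondrial adenylate kinase AK4 rose from 50.2, 48.7 and 55.3 CPM to 122, 145 and 147 CPM (1.43, SE 0.10, edgeR adjusted p = 0.000191), and the glycogen branching enzyme gene GBE1 rose by 0.62 (SE 0.05, edgeR adjusted p = 0.000284). The collagen lysyl hydroxylase gene PLOD2 fell from 685, 642 and 670 CPM to 360, 300.1 and 353 CPM (-0.98, SE 0.08, edgeR adjusted p = 0.000349), and the transferrin receptor gene TFRC fell by 0.78 (SE 0.07, edgeR adjusted p = 0.000586). For the 100 tested genes of the 5 lists the median log2 difference was -0.04, and 51% were called, against 38.7% of all tested genes.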

How the data were processed

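Stranded mRNA libraries were made from total RNA, per the labels' protocols. STAR and HTSeq and the genome builds hg19 and GRCh37 are named, without versions, per the submitters' processing notes; neither the annotation nor the strand setting used in counting is stated there, which leaves counts of overlapping or antisense genes uncertain. The deposited table held raw counts per gene symbol and the authors' FPKM. A further deposited table held the authors' comparison (a mean normalized signal, a log2 fold change, a p-value and an adjusted p-value) made with an unnamed tool.

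The counts were tested with the edgeR 4.0.16 quasi-likelihood F test (robust, two-sided, TMM factors, filterByExpr with a minimum count of 10 and 15 in total), with Benjamini-Hochberg adjustment over all 14548 genes tested. CPM uses TMM-scaled library sizes, and differences are log2 of knockout over wild type. Intervals are 95% and not adjusted. The fit was checked on simulated counts with the same dispersion per gene in both groups and no GC trend. That check thus does not cover the unequal spread of the groups or the GC trend of these libraries. GC content was the median over the GENCODE transcripts of a gene, for 91.5% of tested genes and all 36 members. Older symbols were matched for 4 listed genes. The chi-square per degree of freedom was 2.16 to 4.47 between wild-type libraries and 21.0 to 74.4 between knockout clones. No library was thus a duplicate, but the wild-type libraries differed far less among themselves than the clones did. Replicate numbers pair nothing. The motif search was added after the data were seen.

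Alternatives were other scalings (DESeq2 1.42.0 size factors, upper quartile, library totals), no filter, DESeq2, limma-voom (limma 3.58.1), limma on log2 of FPKM plus 1 or 0.1, removal of each library's lowess trend on GC content (span 0.3), and each library left out. Every member is named, with the level in each library where it was called, and at most 2 called genes per direction of each further list, those with the smallest adjusted p; 1 of these is not reported here. The members and lists were chosen with earlier results of these data known.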

Additional observations from a re-analysis of the deposited data

How the results depend on the processing

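No paired analysis was possible because the labels give the groups no shared replicate numbers. No called member changed sign in any of the 9 settings or with any library left out, but 11 of the 17 called members lost their call when some library was left out. Of 22 glycolysis genes, 5 were called higher and 6 lower; without filter on low counts 5 and 3 were called, and with DESeq2 8 and 6. Leaving out 1 library gave 2 to 11 higher and 2 to 6 lower. Of the hypoxia genes, 1 was called higher and 5 lower; without filter 1 and 3 were called, and leaving out 1 library gave 1 to 2 and 1 to 8. Of the genes of the 5 further lists, 26 were called higher and 25 lower, and leaving out 1 library gave 12 to 32 and 17 to 31. Over all tested genes 5637 were called, and 3020 to 9267 with 1 library left out (3081, 3360 and 3020 without WT 1, WT 2 and WT 4, and 9267 without K17). SLC16A3, not called at 0.42, was at -0.33 with the GC trend removed, the direction that turned in a called setting. The share of higher among called genes was 46.3% in the main comparison and between 38.5% and 51.6% over the 9 settings. The cause of these changes was not tested. Depth limits statements on EGLN3 and CA9, and counting limits cover counting error only.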

Other observations

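The clones disagreed with each other unevenly over the members. The highest clone exceeded the lowest by 2.31-fold for ALDOC and for PFKL, by 2.27-fold for SLC16A3 and by 1.86-fold for ALDOA, with a median of 1.22-fold over 34 tested members, the same as the 1.22-fold over 10476 genes with GC content and more than 5 CPM on average. Wild-type lines differed by a median of 1.06-fold over the members. K17 stood at 0.434 times the mean of K18 and K19 for PFKL, at 0.444 times for SLC16A3 and at 0.546 times for ALDOA, whose transcripts have GC contents of 63.6%, 65.6% and 60.7%. Other members of high GC content were closer, with K17 at 0.858 times that mean for DDIT4 (65.1%) and at 0.802 times for PFKFB3 (60.3%). For ALDOC and ENO2 K17 was the higher, at 1.64 and 1.61 times that mean, with GC contents of 55.5% and 55.9%. Among members of low GC content, K17 stood at 1.16 times that mean for HIF1A (39.2%) and at 1.02 times for EGLN1 (41.4%). Whether GC content bears on these ratios was not tested.

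The authors' deposited table gives PFKL a log2 fold change of 0.91 (adjusted p = 0.00366) and ALDOA one of 0.62 (adjusted p = 0.0153), both below 0.05 there and not called by edgeR here. BNIP3, called here, has an adjusted p of 0.0523 in the authors' deposited table. NDRG1 is at 2.80 there.

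Summed over the 22 glycolysis genes, the level was 9248, 9124 and 8960 CPM in the wild-type lines and 9599, 11747 and 11010.3 CPM in the clones. GAPDH and ENO1 gave 3455, 3408 and 3319 CPM of that in wild-type lines against 3876, 5014 and 4640.2 CPM in the clones. The other 20 genes summed to 5792, 5716 and 5640.3 CPM against 5723, 6733 and 6370.0 CPM, so that K17 lay within the wild-type range.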
